A study of Mus musculus with 10 samples.

Results

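Glucose uptake, glycolysis and lactate formation were described in leukemia-prone hematopoietic progenitors through 10 genes, chosen by name from the deposited count table as a glucose transporter, enzymes along the glycolytic chain and a lactate dehydrogenase subunit. The 10 are Slc2a1, Hk1, Hk2, Gpi1, Pfkl, Aldoa, Gapdh, Pgk1, Pkm and Ldha, out of 25078 genes listed. All 10 had counts in every library and counted as expressed, meaning a mean RPKM of 1 or more in either genotype (reads per kilobase of exon and per 1000000 reads of the library). None was lost to a filter.

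Glycolysis splits glucose into pyruvate in the cytosol and yields a small net gain of ATP without oxygen. Glucose enters through facilitative transporters, hexokinase traps it as a phosphate, phosphofructokinase commits it to the pathway, and pyruvate kinase and lactate dehydrogenase close it with pyruvate and lactate. Hematopoietic stem cells are known for a high reliance on glycolysis, in which the hypoxia-inducible factor HIF-1 is known to take part, and MYC is a known activator of many of the same genes.

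LSK cells (bone marrow cells without lineage markers that carry Sca-1 and c-Kit, and that hold the stem cells and multipotent progenitors) were sorted from 5 mice of the CM and 5 of the CM/miR-126Δ/Δ genotype, and each mouse gave 1 library. Both genotypes carried one Cbfb-MYH11 knock-in allele (Cbfb 56M/+) and the Mx1-Cre transgene, an interferon-inducible recombinase active in many blood cells and not only in them. CM/miR-126Δ/Δ mice also carried floxed copies of miR-126 on both chromosomes, which the CM mice did not. Poly(I:C), which switches Mx1-Cre on, was given to all mice at 6 to 8 weeks of age, and cells were taken 6 weeks after it, before overt leukemia. Mice of both sexes were used, and an uninduced or CM-negative group was not analysed here, so every value below describes cells that carried CM.

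Counts on genes totalled 23649233 to 33202086 per library, and CM mouse 3 had the lowest total. The other CM mice had 29221244 to 33202086 counts and the CM/miR-126Δ/Δ mice 24141663 to 26615091. Depth thus differed with the genotype apart from CM mouse 3, and its part in the results below was not tested. The ribosomal precursor Rn45s took 22.6% of the counts in CM/miR-126Δ/Δ mouse 3 and 14.8% to 18.6% in the other 9 libraries. All 8 stem and progenitor markers checked were expressed, with a summed level (in CPM, counts per 1000000 counts of the library) of 2472 to 2814 CPM in CM and 2211 to 2788 CPM in CM/miR-126Δ/Δ mice. Of 12 markers of mature cells, 11 had counts, with a summed level of 121 to 217 CPM in CM and 129 to 162 CPM in CM/miR-126Δ/Δ mice, and 5 were expressed. All 5 had a negative log2 fold change (median -0.33), none with an adjusted p under 0.05 and 1, Itgam, with an unadjusted p under 0.05, and their part in the results below was not tested. The highest sum was again that of CM mouse 3, where Itgam, an integrin of myeloid cells, stood at 133 CPM, against 70.4 to 90.0 CPM in the rest of its genotype. The globin gene Hbb-bs was next to 0 in all libraries. Mir126a, the deleted precursor, gave 4, 5, 0, 2 and 3 counts across CM mice 1 to 5 and none with miR-126 deleted, close to the detection limit of 3 counts.

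The main mature strand of the deleted microRNA is shown first, with bases 2 to 8, the seed by which a microRNA pairs with its targets, in capitals (RefSeq, GRCm38.p6).
mmu-miR-126a-3p: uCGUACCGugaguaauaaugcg
A match to the seed was sought in the longest 3′ untranslated region that GENCODE M1 gives each gene, and all 10 genes had one. The 7-base match CGGTACG was in 0 of the 10, and in 0.211% of the 19915 genes with such a region. The shorter match GGTACG was in 1 of the 10, Hk1 (1 match in 1054 bases), and in 2.95% of all. The levels of Hk1 are given with the other hexokinase below.

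Several glycolytic genes have left processed pseudogenes, which are copies of the spliced message inserted elsewhere in the genome, and a short read from such a gene can match the copies as well as the gene. Reads here were 51 bases long. Every 51-base window of the longest reference transcript (GENCODE M1) was therefore searched in the mm9 genome for exact copies outside the gene's own locus. The windows of coding sequence with the most copies are shown for Gapdh, which had the most copies of a window among the members shown, and for Ldha. The first coding window of Hk2, which has no copied window, is shown for contrast.
Gapdh: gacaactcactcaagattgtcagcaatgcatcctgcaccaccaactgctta
Ldha: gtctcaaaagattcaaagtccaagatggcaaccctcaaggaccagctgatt
Hk2: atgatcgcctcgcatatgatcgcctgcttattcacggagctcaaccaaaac
The Gapdh window (bases 415 to 465 of the coding sequence) had 82 exact copies elsewhere. The Ldha window had 6 and the Hk2 window 0. For Gapdh and for Pgk1, every coding window had at least 1 copy. Over the whole transcript the share was 85.6% for Gapdh and 92.8% for Pgk1.

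The remaining members fell between these ends. The share of transcript windows with a copy was 40.5% for Pkm, 30.5% for Gpi1, 27.9% for Ldha and 14.1% for Aldoa. It was 0.353% for Pfkl, 0.0237% for Hk1 and 0 for Slc2a1 and Hk2. Among the 61 other genes of glycolysis and its neighbouring pathways with a reference transcript and a mean RPKM of 1 or more over all 10 mice, the median share was 0, and 4 genes were over 50%: Pgam1 at 91.7%, Mpc1 at 73.5%, Eno1 at 71.9% and Bnip3 at 60.9%.

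On the RPKM scale, which divides by exon length so that genes can be compared, Ldha stood highest of the 10 with a mean over all mice of 146 ± 10.9 RPKM (SD, n = 10), followed by Pkm at 134 ± 10.7 and Aldoa at 129 ± 14.1 RPKM. Pkm was above Aldoa in only 6 of 10 mice, so the order of these neighbours was not resolved. Ldha was above Pkm in 9 of 10. Copied windows made up 27.9% of Ldha, 40.5% of Pkm, 14.1% of Aldoa and 30.5% of Gpi1, and their part in this order was not tested. Below them came Gpi1 at 92.2, Hk1 at 82.5, Pfkl at 29.7, Hk2 at 23.1 and Slc2a1 at 13.6 RPKM, and each of Aldoa, Gpi1, Hk1, Pfkl and Hk2 exceeded the next gene in the order in all 10 mice. Pgk1 at 4.82 RPKM and Gapdh at 2.67 RPKM were last. These were the 2 members whose coding windows all had copies, and Gapdh, usually among the most abundant messages of a mammalian cell, had only 43 to 265 counts per library. How reads with several equally good matches were counted is not given in the sources used here, and the part of the copies in these low levels was not tested. The levels of Gapdh and Pgk1 below are the reads that were counted, not a measure of the message against other genes.

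**Figure D1:**
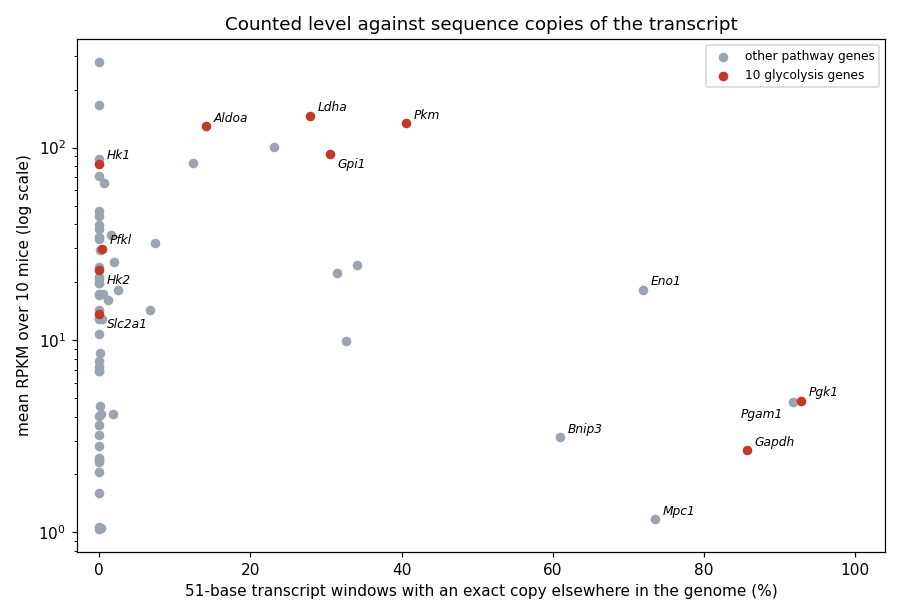
Counted level (mean RPKM over 10 mice, log scale) against the share of 51-base transcript windows with an exact copy elsewhere in the genome, for the 10 glycolysis genes (red) and the other pathway genes with a mean RPKM of 1 or more over all 10 mice (grey), 1 point per gene. Gapdh and Pgk1 lie at the lower right with 85.6% and 92.8% of windows copied, beside Pgam1, while Ldha, Pkm and Aldoa lie at the top with 27.9%, 40.5% and 14.1%.

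In the fit with genotype only, none of the 10 genes passed a threshold for a difference between the genotypes. In edgeR's quasi-likelihood test over 18747 genes, 0 of the 10 had an adjusted p (Benjamini-Hochberg) under 0.05, where 0.0107% of all genes did, and 0 of the 10 met the cutoffs of p at or below 0.01, at least 1.5-fold and a mean RPKM of at least 1, where 0.288% did. The lowest adjusted p among the members was 0.765. At an unadjusted p under 0.05 the count was also 0 of 10, with edgeR and with DESeq2, against 7.92% of the 11682 expressed genes. The CM and CM/miR-126Δ/Δ mice overlapped for all 10, while 1.38% of the expressed genes had groups that did not overlap. None of the 10 was lower in CM/miR-126Δ/Δ in all 5 same-numbered pairs of mice, against 6.47% of the expressed genes. In bulk libraries a lower value could mean fewer cells with the message or less of it per cell, and these cannot be told apart.

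The intervals show what size of change was compatible with these libraries. For 9 of the 10 genes the 95% interval of the difference lay within 1.5-fold in either direction, with Gapdh the exception, and for 8 of the 10 it lay within 1.3-fold, with Slc2a1 outside as well. For Ldha the change in percent was -3.99% with an interval of -13.7% to 6.77%. The log2 fold change of CM/miR-126Δ/Δ against CM was negative for 9 of the 10, of which Pgk1 was next to 0 and turned positive with RLE factors and with DESeq2, with a median of -0.070. A negative value was also the more frequent sign over the expressed genes (57.5%, median -0.019).

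**Figure D2:**
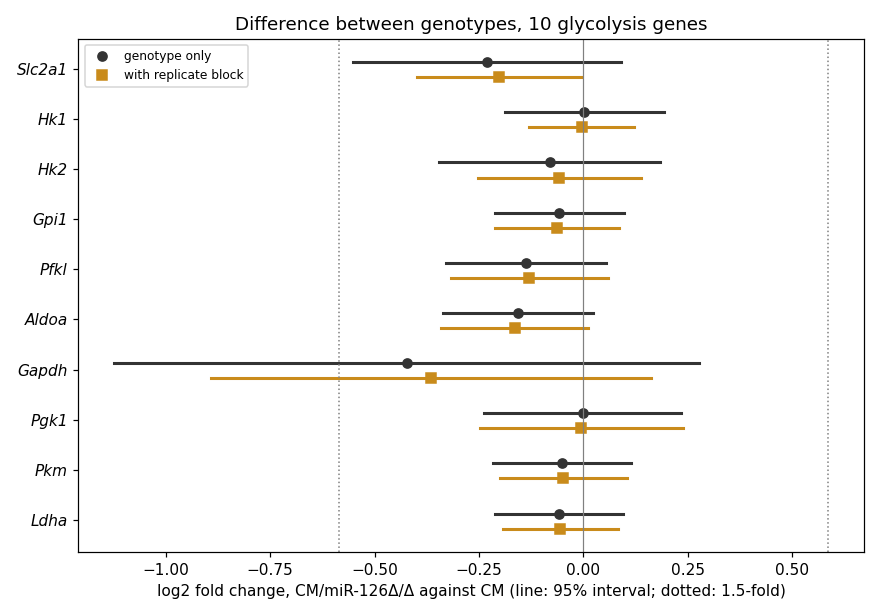
Log2 fold change of CM/miR-126Δ/Δ against CM for each of the 10 genes (points) with its 95% interval (lines), from the fit with genotype only (black) and from the fit with the replicate number as a block (orange), and dotted lines at 1.5-fold. All black intervals cross 0, and that of Gapdh, -1.12 to 0.28, is the widest.

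Slc2a1 (chr4:119108745-119137329 in mm10, plus strand) encodes GLUT1, a transporter that carries glucose into cells. It was at 39.8, 51.9, 24.97, 35.8 and 36.7 CPM in CM mice 1 to 5 and 36.7, 33.4, 26.3, 31.8 and 33.1 CPM in CM/miR-126Δ/Δ mice 1 to 5. CM mouse 2 was the highest and CM mouse 3 the lowest of all 10, and every CM/miR-126Δ/Δ mouse lay between them. The means were 37.8 ± 9.64 CPM with CM alone and 32.2 ± 3.81 CPM with miR-126 deleted as well (SD, n = 5 each). This is a log2 fold change of -0.23 (95% interval -0.55 to 0.090, unadjusted p = 0.146, adjusted p = 0.765 in edgeR's test). With the replicate number as a block, Slc2a1 was the only member with an unadjusted p under 0.05 (log2 fold change -0.20, unadjusted p = 0.0437, adjusted p = 0.540 in edgeR), where 12.2% of the expressed genes had one. No member had an adjusted p under 0.05 in that fit, where 0.107% of all genes did. Without CM mouse 3 the log2 fold change was -0.33 (unadjusted p = 0.0140, adjusted p = 0.481), and without CM mouse 2 it was -0.090 (adjusted p = 0.894), so the size rested on CM mouse 2.

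The hexokinases phosphorylate glucose as it enters, and Hk1 (chr10:62268855-62379908, minus strand) is the form found in most cells. Hk1 was at 393, 353, 406, 340.4 and 368 CPM in CM mice 1 to 5 and 382, 382, 428, 301 and 369.9 CPM in CM/miR-126Δ/Δ mice 1 to 5. The highest and the lowest value were both in CM/miR-126Δ/Δ mice, numbers 3 and 4, and the groups overlapped throughout. The means were 372 ± 27.3 CPM with CM alone and 372 ± 45.8 CPM with miR-126 deleted as well (SD, n = 5 each). The log2 fold change was 0.0019 (95% interval -0.19 to 0.19, adjusted p = 0.996 in edgeR). Hk1os, an antisense transcript inside the Hk1 locus, was at 1.28 ± 0.309 CPM in the CM mice, and a share of its reads in the Hk1 value was not tested.

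Hk2 (chr6:82725027-82774454, minus strand), the inducible hexokinase of proliferating cells, was at 149, 166, 93.7, 113 and 131 CPM in CM mice 1 to 5 and 128, 131, 125.6, 107 and 126.02 CPM in CM/miR-126Δ/Δ mice 1 to 5. The CM mice were spread more widely than the CM/miR-126Δ/Δ mice and held both the highest value, in mouse 2, and the lowest, in mouse 3. The log2 fold change was -0.081 (95% interval -0.35 to 0.18, adjusted p = 0.892), and it turned to 0.020 without CM mouse 2 (adjusted p = 0.987 in edgeR). Without CM mouse 3 it was -0.17 (adjusted p = 0.685). Per length, Hk1 exceeded Hk2 by a ratio of 3.65 ± 1.01 in CM and 3.68 ± 0.280 in CM/miR-126Δ/Δ mice (SD, n = 5 each).

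Gpi1 (chr7:34201327-34230336, minus strand), which turns glucose 6-phosphate into fructose 6-phosphate, was at 271, 279, 263, 279 and 265 CPM in CM mice 1 to 5 and 245, 253, 310.0, 237 and 259 CPM in CM/miR-126Δ/Δ mice 1 to 5. The CM mice were close together, and CM/miR-126Δ/Δ mouse 3 stood above all others. For Gpi1 the log2 fold change was -0.057 (95% interval -0.21 to 0.10, adjusted p = 0.862 in edgeR). Without that mouse it was -0.13 (unadjusted p = 0.0463, adjusted p = 0.753).

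Pfkl (chr10:77986949-78009807, minus strand) is the liver-type subunit of phosphofructokinase, the enzyme of the committing step. Its values were 156, 127, 106, 125.7 and 119 CPM in CM mice 1 to 5 and 115, 109, 129, 105 and 117 CPM in CM/miR-126Δ/Δ mice 1 to 5. CM mouse 1 was the highest, and the lowest of each genotype, CM mouse 3 and CM/miR-126Δ/Δ mouse 4, were nearly equal. Pfkl had a log2 fold change of -0.14 (95% interval -0.33 to 0.055, adjusted p = 0.765 in edgeR). Without CM mouse 3 it was -0.18 (unadjusted p = 0.0451, adjusted p = 0.607). Aldoa (chr7:126795234-126800447, minus strand), which splits fructose 1,6-bisphosphate, was at 270.5, 233, 229.9, 259 and 248 CPM in CM mice 1 to 5 and 194, 200.04, 264, 223 and 232 CPM in CM/miR-126Δ/Δ mice 1 to 5. CM/miR-126Δ/Δ mice 1 and 2 were the lowest of all 10, and CM/miR-126Δ/Δ mouse 3 was second only to CM mouse 1. Aldoa had the lowest unadjusted p of the 10 members, 0.0810, at a log2 fold change of -0.16 (95% interval -0.34 to 0.022, adjusted p = 0.765 in edgeR). Without CM/miR-126Δ/Δ mouse 3 this was -0.23 (unadjusted p = 0.00953, adjusted p = 0.606). The retrotransposed copies Aldoart1 and Aldoart2, rows of their own in the table that can share reads with Aldoa, were at 10.2 ± 1.39 and 5.46 ± 0.956 CPM in CM mice.

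The later steps, which return ATP, begin with Gapdh (chr6:125161852-125166467, minus strand) and Pgk1 (chrX:106187100-106203699, plus strand). Gapdh gave 122, 265, 61, 95 and 144 counts across CM mice 1 to 5 and 103, 94, 43, 127 and 62 counts across CM/miR-126Δ/Δ mice 1 to 5. CM mouse 2 stood at 8.76 CPM, above every other mouse, and CM/miR-126Δ/Δ mouse 3 was the lowest at 1.87 CPM. The log2 fold change of -0.42 had an interval of -1.12 to 0.28 (adjusted p = 0.765 in edgeR) and was -0.051 without CM mouse 2. The coefficient of variation over the 10 mice was 48.6% for Gapdh, the largest of the 10, while Pgk1, with 186 to 294 counts per library, had 9.13%. Pgk1 was at 8.84, 8.89, 8.35, 9.88 and 8.02 CPM in CM mice 1 to 5 and 8.27, 7.51, 10.1, 9.22 and 8.85 CPM in CM/miR-126Δ/Δ mice 1 to 5. The genotypes covered the same range, and the log2 fold change was -0.0016 (95% interval -0.24 to 0.23, adjusted p = 0.996 in edgeR).

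Pkm (chr9:59656368-59679375, plus strand) encodes the muscle-type pyruvate kinase, whose M1 and M2 forms differ by 1 alternative exon and are summed in a count per gene. It was at 372, 352, 302, 395 and 352 CPM in CM mice 1 to 5 and 335, 307, 362, 354 and 353 CPM in CM/miR-126Δ/Δ mice 1 to 5. CM mice 4 and 3 gave the highest and lowest value, with all CM/miR-126Δ/Δ mice between them. Pkm had a log2 fold change of -0.051 (95% interval -0.22 to 0.11, adjusted p = 0.892 in edgeR). Ldha (chr7:46845804-46855627, plus strand), the subunit that favours lactate formation, was at 312, 297, 264, 313 and 255 CPM in CM mice 1 to 5 and 271, 259.7, 285, 294 and 274 CPM in CM/miR-126Δ/Δ mice 1 to 5. The CM mice again spanned the CM/miR-126Δ/Δ mice. Ldha differed by -0.059 on the log2 scale (95% interval -0.21 to 0.095, adjusted p = 0.857 in edgeR), one of the narrowest intervals of the 10.

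**Figure D3:**
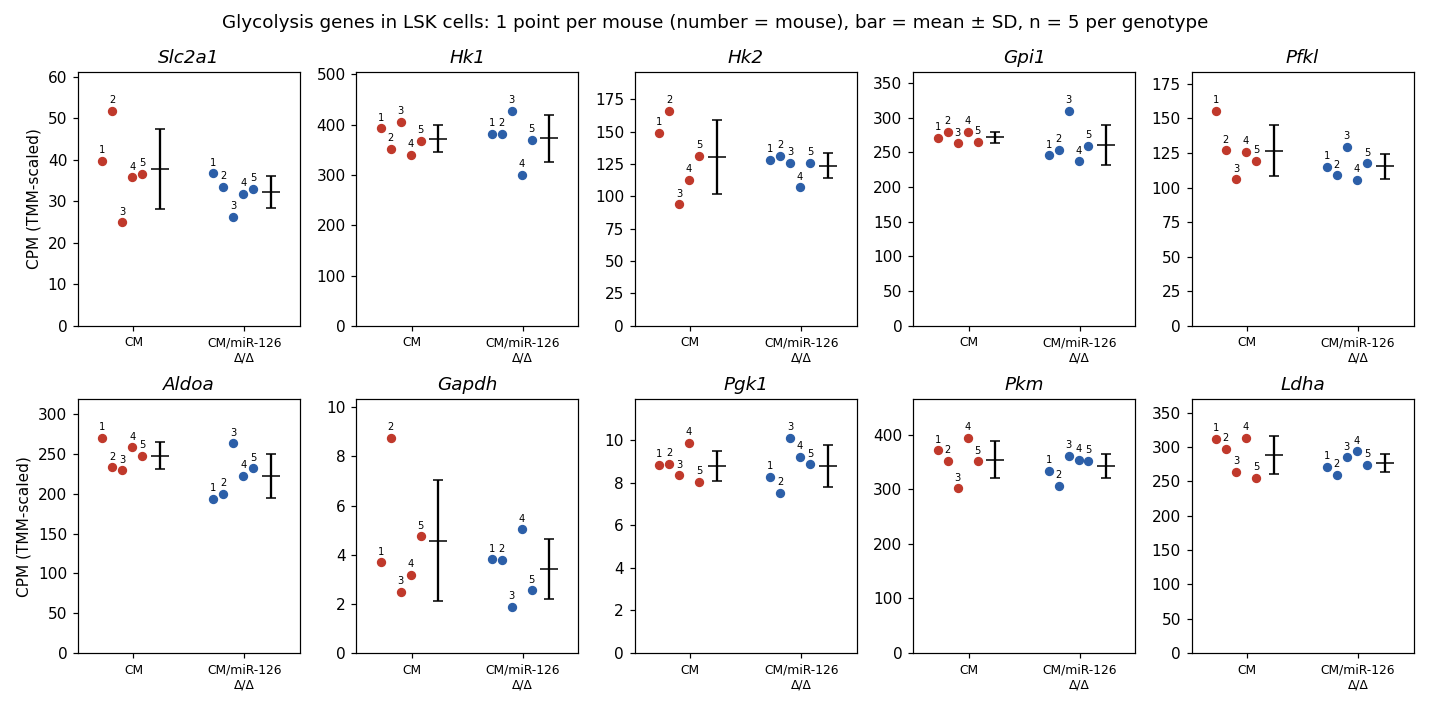
Normalised level (CPM, scaled with TMM factors, axes from 0) of each of the 10 genes in every mouse (points, numbered by mouse), with the mean ± SD of 5 mice per genotype (black), CM in red and CM/miR-126Δ/Δ in blue. The genotypes overlap in all 10 panels, CM mouse 3 is the lowest of all 10 mice for Slc2a1, Hk2 and Pkm, and CM mouse 2 is the highest for Slc2a1, Hk2 and Gapdh.

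Members differed in how closely they varied together between mice. Across the 10 mice, 33 of the 45 pairs of members had a Pearson correlation of log2(CPM + 1) above 0, 12 of the 45 had one of at least 0.6, and the median was 0.305. Slc2a1 and Gapdh had r = 0.830 (Spearman's rho = 0.624, and 0.595 without the 2 mice farthest from the Slc2a1 median). Slc2a1 and Hk2 had r = 0.815 and rho = 0.855, but r was 0.408 without the same 2 mice, so this relation rested on those mice. Hk2 and Gapdh had r = 0.546, which was -0.105 without the 2 farthest mice, so Slc2a1, Hk2 and Gapdh did not hold together as a group of 3. Among the later steps, r was 0.768 for Pkm and Ldha (rho = 0.830, and 0.720 without the 2 farthest mice) and 0.747 for Pgk1 and Pkm (rho = 0.758, and 0.696). Pgk1 and Ldha had r = 0.733 (rho = 0.758, and 0.841). Between Pgk1, Pkm or Ldha and the earlier Gpi1, Pfkl or Aldoa, r over all 10 mice was lower. It ran from 0.305 for Gpi1 and Ldha (0.694 without the 2 farthest mice) to 0.684 for Aldoa and Pkm (0.593). Without the 2 farthest mice these pairs ran from 0.360 for Aldoa and Pgk1 to 0.882 for Pfkl and Pkm. That range overlapped the 0.696 to 0.841 of the later steps, so the later steps did not stand apart. Gpi1 and Aldoa had r = 0.716 (rho = 0.855, and 0.817), and Pfkl and Aldoa r = 0.706 (rho = 0.855, and 0.660). Hk2 and Pfkl had r = 0.631 (rho = 0.564, and 0.643). Hk1 and Gapdh had the lowest value of all pairs, -0.579 (rho = -0.673). The points of each pair share the library, its depth and its normalisation factor, and both genotypes are pooled, so these values describe 10 mice and were given no test.

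**Figure D4:**
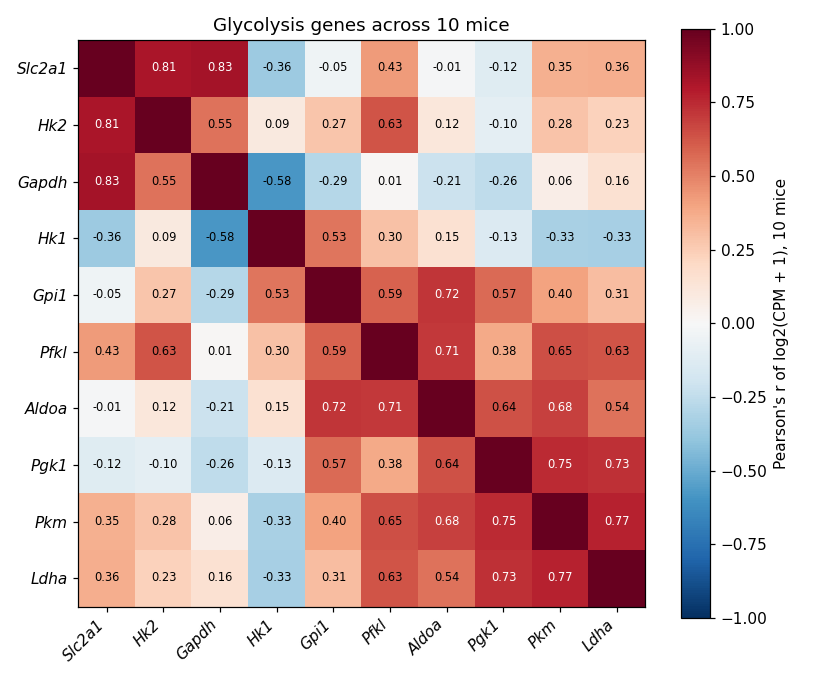
Pearson's r of log2(CPM + 1) across 10 mice for each of the 45 pairs of genes, from blue (−1) to red (1). The strongest pairs are Slc2a1 with Gapdh at 0.830 and with Hk2 at 0.815, at the upper left, and Pkm with Ldha at 0.768, at the lower right, and the values between Pfkl, Aldoa and the later steps are also mostly red.

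Among 9279 other genes with a mean of at least 10 CPM, the 5 whose level followed the mean of the standardised members most closely over the 10 mice were Atp5a1, the alpha subunit of mitochondrial ATP synthase (r = 0.938, rho = 0.867), Mcm3, a subunit of the replicative helicase (r = 0.926, rho = 0.927), Arhgdia (r = 0.916, rho = 0.867), Gnl1, a GTP-binding protein (r = 0.911, rho = 0.891), and Rcc2 (r = 0.904, rho = 0.939). Without the 2 mice farthest from the median of that mean, r was 0.821 to 0.890. That mean had r = 0.777 (rho = 0.745) with the total count of the library, whose part in these likenesses was not tested. The 5 were picked as the highest of many, and none of the 5 passed the test between the genotypes (adjusted p of 0.765 to 0.865 in edgeR).

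Because HIF-1 and MYC are known to act on this pathway, the promoters (250 bases before to 50 after each annotated start, RefSeq, GRCm38.p6) were searched on both strands for the core of the HIF site, ACGTG or GCGTG, and for the E-box CACGTG that MYC with MAX can bind. An E-box holds an ACGTG on each strand and is counted in both searches. The HIF core was in 11 of the 15 promoters of the 10 genes, against 43.8% of all 32851 promoters. Of these 11, 2 were overlapping promoters of Aldoa that hold the same site. By gene, it was in a promoter of 9 of the 10, and the share by gene over all genes was not computed. The E-box was in 1 of the 15, against 7.15%. That promoter was the upstream one of Ldha, with 2 E-boxes. It is shown with the promoter of Pgk1, which holds the HIF core without an E-box and whose gene varied with Ldha between mice. Capitals mark the motifs.
Ldha, chr7:46845554-46845853, plus strand: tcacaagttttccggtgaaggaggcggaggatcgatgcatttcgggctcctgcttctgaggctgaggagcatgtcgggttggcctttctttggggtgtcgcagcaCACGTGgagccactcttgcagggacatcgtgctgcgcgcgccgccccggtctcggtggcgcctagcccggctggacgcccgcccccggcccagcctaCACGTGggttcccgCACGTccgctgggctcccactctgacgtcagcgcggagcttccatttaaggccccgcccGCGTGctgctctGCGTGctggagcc
Pgk1, chrX:106186850-106187149, plus strand: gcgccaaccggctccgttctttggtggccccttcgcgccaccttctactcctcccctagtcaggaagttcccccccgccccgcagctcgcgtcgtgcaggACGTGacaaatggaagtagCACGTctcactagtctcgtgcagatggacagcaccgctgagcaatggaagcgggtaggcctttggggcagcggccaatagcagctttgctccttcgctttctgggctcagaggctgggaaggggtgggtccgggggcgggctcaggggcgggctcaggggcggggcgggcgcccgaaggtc
Letters alone do not show that a factor binds, and binding was not measured in these libraries.

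The other isoforms and steps of glycolysis, 21 genes of which 11 were expressed, also held no called gene, with 5 lower and 6 higher in CM/miR-126Δ/Δ cells and a median log2 fold change of 0.0002. None had an adjusted p under 0.05, and 3 of the 11 had an unadjusted p under 0.05, where 7.92% of all expressed genes did. Adpgk, an ADP-dependent glucokinase, was at 38.5 ± 4.59 CPM with CM alone and 32.6 ± 3.01 CPM with miR-126 deleted as well (SD, n = 5 each; log2 fold change -0.24, adjusted p = 0.746). Pfkp, the platelet-type phosphofructokinase subunit, had a log2 fold change of -0.16 and stood below the same-numbered CM mouse in all 5 CM/miR-126Δ/Δ mice. Aldoc, the brain-type aldolase, was at 5.72, 6.84, 5.73, 7.46 and 9.64 CPM in CM mice 1 to 5 and 9.79, 9.20, 7.88, 8.08 and 10.7 CPM in CM/miR-126Δ/Δ mice 1 to 5. All 5 CM/miR-126Δ/Δ mice stood above the same-numbered CM mouse, although the groups overlapped (log2 fold change 0.37, adjusted p = 0.746 in edgeR). The share of all expressed genes that were higher in all 5 was not computed.

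In the 6 pairs of isoforms compared, the same form had the higher mean in both genotypes. Per length, Ldha exceeded Ldhb, the heart-type subunit, by a ratio of 15.3 ± 1.85 in CM and 14.96 ± 3.31 in CM/miR-126Δ/Δ mice (SD, n = 5 each). Pfkl exceeded Pfkm by 1.299 ± 0.125 and 1.182 ± 0.104 and Pfkp by 2.27 ± 0.246 and 2.30 ± 0.197. Slc2a1 was not the most abundant glucose transporter: its ratio to Slc2a3, a high-affinity transporter, was 0.348 ± 0.0521 in CM and 0.333 ± 0.0268 in CM/miR-126Δ/Δ mice. The ratio of Aldoa to Aldoc was 57.2 ± 12.5 in CM and 39.1 ± 8.88 in CM/miR-126Δ/Δ mice, and the ranges overlapped. Copied windows made up 27.9% of Ldha and 32.7% of Ldhb, and 14.1% of Aldoa and 0% of Aldoc. Their part in these ratios was not tested. Eno1 and Pgam1, the enzymes between Pgk1 and Pkm, were at 18.2 and 4.74 RPKM, and both are among the genes with many copied windows above. Tpi1, which interconverts the triose phosphates, was at 101 RPKM, and Hk3, a hexokinase of myeloid cells, at 38.0 RPKM.

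Of the 82 genes on all 7 neighbouring lists, 62 were expressed, and 39 of them were lower and 23 higher in CM/miR-126Δ/Δ cells (median log2 fold change -0.044). None had an adjusted p under 0.05, with 4 lower and 2 higher at an unadjusted p under 0.05, where 4.46% and 3.46% of the expressed genes were. Of the other glucose transporters, 5 of 10 were expressed, 3 lower and 2 higher. Slc2a8, an intracellular hexose transporter, was the only 1 of these 62 genes whose genotypes did not overlap, where 1.38% of all expressed genes did not. Its values were 3.97, 3.60, 3.81, 3.70 and 4.23 CPM in CM mice 1 to 5 and 4.78, 4.40, 5.01, 4.87 and 5.31 CPM in CM/miR-126Δ/Δ mice 1 to 5 (log2 fold change 0.34, adjusted p = 0.746 in edgeR). Slc2a3 and Slc2a6 had log2 fold changes of -0.15 and -0.43, neither with an unadjusted p under 0.05. With the replicate number as a block, 6 of the 62 were lower and 3 higher at an unadjusted p under 0.05 and none at an adjusted p under 0.05. The 3 added by the block were Slc2a3 (adjusted p = 0.494 in edgeR), Pgls and Arrdc4, described below.

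Downstream of pyruvate, Bsg, the chaperone that brings lactate carriers to the cell surface, was at 161 ± 11.4 CPM with CM alone and 145 ± 7.23 CPM with miR-126 deleted as well (SD, n = 5 each), with all 5 CM/miR-126Δ/Δ mice below the same-numbered CM mouse (log2 fold change -0.15, adjusted p = 0.746 in edgeR). Of 17 expressed genes of pyruvate and lactate fate, 10 were lower and 7 higher, and Bsg was the only one with an unadjusted p under 0.05. Pdk1, which blocks pyruvate dehydrogenase, had a log2 fold change of -0.16, and Pcx, pyruvate carboxylase, -0.31. In the pentose phosphate pathway, which draws on glucose 6-phosphate, 6 of 7 genes were lower. Pgls, its second enzyme, had the largest negative log2 fold change there, -0.19, with Tkt, transketolase, at -0.12 and Pgd, which releases carbon dioxide, at -0.073. None of the 7 passed the unadjusted threshold, which Pgls did with the replicate block (adjusted p = 0.470 in edgeR).

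Regulators gave no call either. Of 7 expressed regulators of glycolytic flux or glucose entry, 3 lower and 4 higher, none passed the unadjusted threshold, with log2 fold changes of -0.091 for Pfkfb3, which makes the activator of phosphofructokinase, -0.11 for Tigar, which removes it, and 0.21 for Arrdc4, an arrestin that restrains glucose uptake. Arrdc4 passed it with the replicate block (adjusted p = 0.546 in edgeR). HIF subunits and their oxygen sensors gave 0 of 7 (5 lower and 2 higher), with -0.15 for Egln3 and -0.10 for Egln1, prolyl hydroxylases that mark HIF for decay, and 0.078 for Hif1an, which blocks its activity. Of 8 expressed hypoxia-inducible genes outside glycolysis, 7 were lower and 1 higher, and only Vegfa, the endothelial growth factor, passed it. Vegfa was at 16.98, 29.2, 35.5, 11.3 and 13.9 CPM in CM mice 1 to 5 and 14.2, 15.7, 14.4, 12.4 and 9.18 CPM in CM/miR-126Δ/Δ mice 1 to 5. CM mice 2 and 3 were far above all other mice, and the remaining values overlapped (log2 fold change -0.69, standard error 0.270, adjusted p = 0.746 in edgeR). P4ha1, a collagen hydroxylase, and Kdm3a, a histone demethylase, had log2 fold changes of -0.10 and -0.058.

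**Figure D5:**
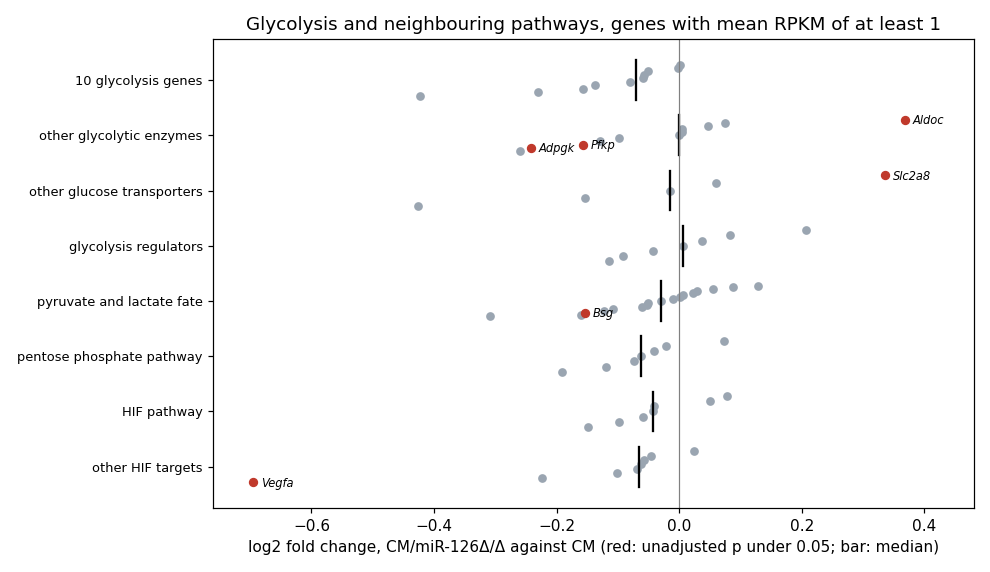
Log2 fold change of CM/miR-126Δ/Δ against CM for the 10 glycolysis genes and 7 neighbouring lists, 1 point per expressed gene, red where the unadjusted p is under 0.05, and a black bar at each list's median. None of the 10 glycolysis genes is red, and the red points are Adpgk, Pfkp, Aldoc, Slc2a8, Bsg and Vegfa.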

How the data were processed

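RNA was measured in sorted LSK cells of 10 mice. The authors depleted ribosomal RNA, prepared stranded single-end libraries, trimmed the reads with Trimmomatic and FASTP, aligned them to mm10 with Tophat and obtained counts on RefSeq genes with HTSeq (0.6.1p1 per the labels). The deposited table holds whole-number counts per gene, not normalized, with each gene's position and exon length. The strand setting and the handling of multi-mapped reads are not given in the sources used here. A second deposited table, of normalized values, was not used.

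All 18747 genes with at least 1 count entered the fit of edgeR 4.0.16 under R 4.3.3 (TMM, quasi-likelihood F-test in the form of edgeR 3, genotype only, two-sided, where the study states a one-sided test), with Benjamini-Hochberg adjustment of p-values. Standard errors are the log2 fold change over the square root of F, and intervals use 95% of the t distribution with the moderated degrees of freedom. CPM and RPKM use TMM-scaled library sizes. Same-numbered mice deviated together from their genotype means (r = 0.161 to 0.469 in the 5 pairs, 12275 genes), with a mean r of 0.317 against -0.082 for different numbers. Only 2 of the 5 CM/miR-126Δ/Δ mice had the same-numbered CM mouse as closest partner. In the other direction, CM mice 1, 3 and 4 had the same-numbered CM/miR-126Δ/Δ mouse as closest partner, and CM mice 2 and 5 did not. By Xist and Y-linked counts, mice 1 to 3 were female and mice 4 and 5 male in both genotypes, so same-numbered mice also shared sex. The sample titles give numbers and state no pairing, and whether the numbers pair the mice was not tested. A fit with the number as a block was made beside each result. No 2 libraries agreed within sampling noise. On simulated counts of 18369 genes with 200 changed, edgeR recovered 95.0% of those changed 2-fold and 99.0% of those changed 4-fold. Of the genes called there, 6.73% were false with edgeR and 16.1% with DESeq2. Changes smaller than 2-fold were not simulated. The members had log2 fold changes of -0.42 to 0.0019, so this recovery does not tell whether differences of their size would be found. DESeq2 1.42.0 was an alternative.

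Windows of 51 bases and seed matches used GENCODE M1 transcripts and the mm9 genome, an older build than mm10, from which sequences and symbols were taken but no coordinates. Total counts set the precision: 3 counts, the smallest level taken as detectable, are at most 0.127 CPM, a limit that covers counting error only. The members and gene lists were chosen with earlier results of these data known. Named are the 10 members, from each other list the 3 genes with the smallest p among those expressed (mean RPKM of 1 or more in either genotype), isoform partners, the 5 genes most like the members, and Mir126a. The other alternatives were RLE factors, filterByExpr, the quasi-likelihood of edgeR 4, sex read from Xist and Y-linked counts as a covariate, Rn45s left out, no RPKM requirement, and each mouse left out in turn.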

Additional observations from a re-analysis of the deposited data

Results flagged for a closer look

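Hk2 in CM/miR-126Δ/Δ mouse 4, at 106.9 CPM, lay far below the other 4 mice of its genotype, which had 125.6 to 131 CPM. It was the only one of 20 groups of 5 mice (10 genes in 2 genotypes) with a mouse this far from the others, and about 1 in 20 is flagged by chance. Leaving this mouse out gave an Hk2 log2 fold change of -0.020 (adjusted p = 0.969 in edgeR's quasi-likelihood test). The same mouse was also the lowest of all 10 for Hk1, Gpi1 and Pfkl.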

How the results depend on the processing

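Across 187 fits of single members under the alternatives, 170 kept their direction and 0 had an adjusted p under 0.05. The direction of Pgk1 turned to 0.0080 with RLE factors, 0.0067 with DESeq2, 0.016 with filterByExpr and 0.0026 without Rn45s, and that of Hk1 to -0.0042 with the replicate block and -0.0019 with sex as a covariate. With 1 mouse left out at a time the log2 fold change ran from -0.056 to 0.056 for Pgk1, from -0.053 to 0.084 for Hk1, from -0.17 to 0.020 for Hk2 and from -0.090 to 0.0027 for Pkm. These turns lie within the standard errors of values next to 0, and the cause was not tested. Members with an unadjusted p under 0.05 numbered 1 with the replicate block (Slc2a1) and 0 to 2 with 1 mouse left out, the latter without CM mouse 3 (Slc2a1 and Pfkl) or CM/miR-126Δ/Δ mouse 3 (Gpi1 and Aldoa). Members with a negative log2 fold change numbered 8 to 10, and other pathway genes with an unadjusted p under 0.05 numbered 2 to 13, the highest without CM/miR-126Δ/Δ mouse 3, the library with the largest share of Rn45s counts. Over all genes the 2 with an adjusted p under 0.05 became 45 with DESeq2, 4 with filterByExpr, 20 with the replicate block, 4 with sex as a covariate and 1 to 7 with 1 mouse left out. The 54 that met the study's cutoffs became 115 with the replicate block, 111 without the RPKM requirement and 33 to 128 with 1 mouse left out, the highest without CM mouse 3. With the replicate block 9 other pathway genes had an unadjusted p under 0.05 in place of 6, and no member or pathway gene had an adjusted p under 0.05 with or without it.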

Other observations

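Pklr, the pyruvate kinase of red cells and liver, was on a list of glycolytic enzymes but under a mean RPKM of 1, and it is named here after its values were seen. It gave 6, 0, 25, 6 and 0 counts across CM mice 1 to 5 and 17, 17, 131, 9 and 60 counts across CM/miR-126Δ/Δ mice 1 to 5. All 5 CM/miR-126Δ/Δ mice stood above the same-numbered CM mouse, and the share of all genes that did so was not computed. The groups overlapped, and most of the counts were in CM/miR-126Δ/Δ mice 3 and 5 (log2 fold change 2.87, standard error 0.931, adjusted p = 0.661 in edgeR's quasi-likelihood test). With the replicate number as a block its unadjusted p was 6.4e-04 and its adjusted p 0.143.

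Gapdh and Actb are both common reference genes for expression measurements. Actb, named after its values were seen, had a coefficient of variation of 6.48% over the 10 mice, where Gapdh had 48.6%. Gapdh had few counts and copies of all its coding windows elsewhere in the genome. The part of either in this spread was not tested.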
